A study of Mus musculus with 16 samples.

Results

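The accessible chromatin at 9 mouse lysine acetyltransferase genes was examined in hematopoietic stem and progenitor cells (HSPCs) with and without p300. The genes were *Ep300*, which encodes p300, its paralog *Crebbp*, which encodes CBP, and *Kat2a*, *Kat2b*, *Kat5*, *Kat6a*, *Kat6b*, *Kat7* and *Kat8*. Members were taken by name, and all peaks in the gene body or within 10 kb either side were assigned to a gene, which gave 252 of 296215 merged accessible regions and 9 of 19728 protein-coding genes with a region. The question was whether accessibility at *Crebbp* or another acetyltransferase locus ranked higher once p300 was lost.

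Lysine acetyltransferases transfer an acetyl group from acetyl-CoA to lysines of histones and other proteins. p300 and CBP are large paralogous coactivators that are recruited by transcription factors and acetylate histone H3 at enhancers and promoters, and both are expressed in hematopoietic cells. GCN5 (*Kat2a*) and PCAF (*Kat2b*) form another paralogous pair, and the MYST family holds TIP60 (*Kat5*), MOZ (*Kat6a*), MORF (*Kat6b*), HBO1 (*Kat7*) and MOF (*Kat8*), each of which works inside a multisubunit complex.

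Accessibility was measured by ATAC-Seq, in which a transposase cuts open DNA, in HSPCs sorted from bone marrow. There were 4 genotypes with 4 libraries each: WT, P300KO, TET2KO and P300KO_TET2KO, and each library pooled the cells of 2 mice of like age. Per the study's methods, all mice carried floxed alleles of *Ep300* (Ep300 fl/fl), WT mice lacked Cre, P300KO mice carried Mx1-Cre, TET2KO mice were Tet2-/- without Cre, and P300KO_TET2KO mice were Tet2-/- with Mx1-Cre. All mice received poly(I:C), which induces this interferon-responsive Cre, so only the Cre carriers could delete *Ep300*, and Cre itself cannot be told apart from the loss of p300. Which exon of *Ep300* was floxed is not given in the sources used here. The labels of replicates 1 and 2 in every genotype refer to a merged file of peaks, and those of replicates 3 and 4 refer to none. The former are termed deposit set 1 and the latter deposit set 2.

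Peaks came as a separate list per library, and peaks were compared by their rank within the list. Within a list, peaks were ordered by the −log10 p of their strongest summit and given a percentile, so that 100 is the strongest peak. Lists held 86039 to 110055 peaks in deposit set 1 and 130610 to 137335 in deposit set 2, and the 9 loci together held 55 to 79 and 89 to 123 regions per library. Read counts are not part of the lists, and the methods state a minimum of reads aimed at for all samples but not what any library reached, so the depth of each is unknown. The promoters of 6 of 8 stem and progenitor marker genes, *Kit*, *Cd34*, *Gata2*, *Meis1*, *Hlf* and *Flt3*, had a peak in all 16 libraries, *Ly6a* had one in 15 and *Mecom* in 2. Of 10 markers of mature cells, *Adgre1* had a promoter peak in all 16 libraries, and *Ly6g* and *Ncr1* had none. A library held peaks at 1 to 5 of these mature marker promoters in WT, 2 to 6 in P300KO, 2 to 6 in TET2KO and 3 to 5 in P300KO_TET2KO, and the part of such cells in the results was not tested. In sorted populations a change in the mix of cells and a change in openness per cell cannot be told apart.

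The sequences on which the results turn come from the promoters of *Ep300* and *Crebbp*, the promoter of *Kat5*, a region upstream of *Kat5* that ranked higher with p300 loss, and exon 4 of *Ep300*, where a peak was found in some libraries without p300. All are reference sequence of mm10, given 5′ to 3′ on the strand of the gene. The first 4 windows overlap no annotated exon, and capitals mark matches to the short strings searched on both strands, which were CCGGAAG for Ets factors, GATAA for the GATA family, TGTGGT for Runx factors, AACTG for Myb, TGACGT for Creb, GGGCGG for Sp and Klf factors and CCAAT for NF-Y. In the exon 4 window the capitals span the summits called in 4 libraries.
*Ep300* promoter, chr15:81585091-81585291, plus strand: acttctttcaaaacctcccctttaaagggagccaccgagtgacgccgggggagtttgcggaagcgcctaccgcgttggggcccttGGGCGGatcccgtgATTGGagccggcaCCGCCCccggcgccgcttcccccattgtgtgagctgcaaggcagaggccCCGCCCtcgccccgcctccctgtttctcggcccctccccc
*Crebbp* promoter, chr16:4214044-4214244, minus strand: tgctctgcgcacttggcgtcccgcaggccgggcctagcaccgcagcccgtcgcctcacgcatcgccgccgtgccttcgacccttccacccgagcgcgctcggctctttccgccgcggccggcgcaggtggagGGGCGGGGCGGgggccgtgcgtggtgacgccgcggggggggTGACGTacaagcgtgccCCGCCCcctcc
*Kat5* promoter, chr19:5610238-5610438, minus strand: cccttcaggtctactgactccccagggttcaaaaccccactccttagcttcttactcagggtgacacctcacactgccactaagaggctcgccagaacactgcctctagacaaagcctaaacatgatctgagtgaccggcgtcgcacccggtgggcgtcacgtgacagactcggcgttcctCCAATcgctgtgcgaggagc
*Kat5* upstream region, chr19:5613130-5613330, minus strand: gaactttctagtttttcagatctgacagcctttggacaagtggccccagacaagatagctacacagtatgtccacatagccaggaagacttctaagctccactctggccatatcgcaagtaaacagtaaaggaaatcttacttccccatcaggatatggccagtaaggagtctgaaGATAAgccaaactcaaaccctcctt
*Ep300* exon 4, chr15:81610410-81610610, plus strand: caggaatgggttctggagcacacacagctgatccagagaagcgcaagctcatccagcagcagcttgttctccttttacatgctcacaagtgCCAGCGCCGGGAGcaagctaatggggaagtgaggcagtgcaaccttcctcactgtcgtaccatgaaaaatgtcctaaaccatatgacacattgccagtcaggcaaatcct
The *Ep300* and *Crebbp* promoter windows were centred at −206 bp and −147 bp from the main start, and their GC contents were 68.7% and 77.6%. They held 18 and 31 CpG dinucleotides, and each held 3 matches to the Sp and Klf string. The printed *Kat5* promoter window was kept off exons, so its centre lies 284 bp from the summit of that promoter. A window at that summit held 2 matches to the Ets string, 1 to Creb, 2 to Sp and Klf and none to NF-Y. The window upstream of *Kat5* differed in composition, with a GC content of 44.8%, 1 CpG and 1 match to the Gata string. Over the windows of 201 bp at the summits of all 39310 regions found in every library, the median GC content was 54.7%, the Sp and Klf string occurred in 29.6% and the Gata string in 15.7%. A match describes letters and does not show that a factor binds.

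All 9 acetyltransferase promoters were open in all 16 libraries. The highest ranked promoters belonged to *Kat6b*, with a median percentile of 99.3 over 16 libraries (range 98.3 to 99.8), and *Kat7*, with a median of 98.5 (97.8 to 98.9). *Crebbp* followed at a median of 95.6 (92.5 to 97.7), then *Ep300* at 94.9 (89.5 to 96.3), *Kat8* at 94.8 (92.5 to 96.1), *Kat5* at 93.5 (91.9 to 95.4), *Kat6a* at 93.5 (91.2 to 95.7) and *Kat2b* at 92.9 (88.8 to 94.2). The *Kat2a* promoter ranked lowest at a median of 81.7 (75.4 to 86.2), and none of its libraries reached the lowest library of *Kat2b*. The ranges of neighbours from *Crebbp* to *Kat2b* overlapped, as did those of *Kat6b* and *Kat7*, while those of *Kat7* and *Crebbp* did not. A wider region can collect a stronger peak, and the ranks are not corrected for width. Averaged over both Tet2 backgrounds, the differences between libraries without and with p300 at these 9 promoters lay between −0.94 and 0.76 percentile points, and none was called. They depended on the measure: ranked by fold enrichment, the values were −6.93 at *Kat2b*, −5.78 at *Kat5*, −5.20 at *Kat6b*, −3.73 at *Kat7*, −3.26 at *Kat6a*, −3.22 at *Kat2a*, −3.04 at *Ep300*, −3.01 at *Crebbp* and 0.031 at *Kat8*. The median of all regions was then −0.52 points, and none of the 9 promoters was called (lowest adjusted p = 0.062 by limma, at *Kat5*).

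The *Ep300* promoter lay at chr15:81584854-81586758 and covered exon 1. Its percentiles were 95.5, 92.9, 94.8 and 94.6 in WT and 94.6, 95.3, 95.5 and 95.2 in P300KO. In TET2KO they were 90.6, 89.5, 95.9 and 96.3, and in P300KO_TET2KO 92.7, 92.3, 95.1 and 95.4. The groups overlapped, and the low values in both Tet2-deleted groups were those of replicates 1 and 2, from deposit set 1. With p300 loss the percentile differed by 0.76 points (95% interval −0.64 to 2.16, adjusted p = 0.662 by limma over 39310 regions), so the start of *Ep300* remained open in libraries from Cre carriers.

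*Ep300* had 20 regions, of which 3 were found in all 16 libraries. Besides the promoter these were 2 intronic regions, at chr15:81593916-81594875, about 9 kb into the gene, and chr15:81606665-81607122, about 21 kb into the gene. The nearer one had percentiles of 64.1, 49.9, 67.8 and 73.4 in WT and 51.0, 69.1, 74.8 and 72.2 in P300KO. In TET2KO its percentiles were 65.7, 56.2, 73.1 and 70.4, against 71.8, 69.5, 78.4 and 73.1 in P300KO_TET2KO. P300KO_TET2KO libraries sat at the upper end, but the ranges overlapped, and the effect of p300 loss over both backgrounds was 4.91 points (−1.82 to 11.63, adjusted p = 0.547). The farther region ranged from 39.6 to 82.0 and differed by 2.89 points (−5.21 to 11.00, adjusted p = 0.789), or by −0.013 to 5.19 as each library was left out. Both intronic regions ranked lower in deposit set 1 than in set 2 in most libraries, and the deposit set was a term in each fit. As the mean of these 3 regions, the *Ep300* locus lay between 61.8 and 83.8 over the 16 libraries and differed by 2.85 points (−1.63 to 7.34, adjusted p = 0.652 by limma over 16370 loci), or 1.46 points without TET2KO replicate 2 and 1.79 without WT replicate 2.

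Peaks over the exons of *Ep300* were few, and 1 of them was found only in the libraries without p300 of deposit set 2. Of 31 exons of the main transcript, 28 had no peak in any library, exon 1 had a peak in all 16, exon 4 in 4 and exon 31, the last, in 6. Exon 4 spans chr15:81610355-81610616. A peak over it was present in replicates 3 and 4 of P300KO, at percentiles 35.6 and 42.0, and in replicates 3 and 4 of P300KO_TET2KO, at 52.9 and 42.7. No peak was found there in WT or TET2KO replicates 3 and 4, nor in any of the 8 libraries of deposit set 1. In set 2 the libraries with and without p300 therefore did not overlap, and in set 1 neither kind had a peak there.

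The exon 4 peaks were moderate in strength and closely matched the exon. Their fold enrichments over the local background were 4.44 and 5.12 in P300KO and 8.25 and 5.47 in P300KO_TET2KO, with −log10 p of 14.5, 13.5, 40.5 and 22.0. Their summits lay between chr15:81610501 and chr15:81610513, a stretch of 13 bp that is printed in capitals above. Between 85.6% and 98.3% of each peak lay inside the exon, and the peaks covered 90.8% to 100% of it. Over all regions with a peak in deposit set 2, 0.249% were present in 4 of 4 libraries lacking p300 and 0 of 4 with p300, and 0.231% showed the opposite, so regions of either direction were about equally rare. This region was the only 1 of the 252 with that pattern in set 2, in either direction, and 0 had it in set 1, where 0.167% and 0.0121% of all regions showed the 2 directions. A count of 1 among 252 regions is near what the shares in set 2 give. The exon 4 region was singled out after its values were seen and was given no test. Why exon 4 held a peak in these 4 libraries was not tested, and the peaks are no check of the genotype labels.

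**Figure D1:**
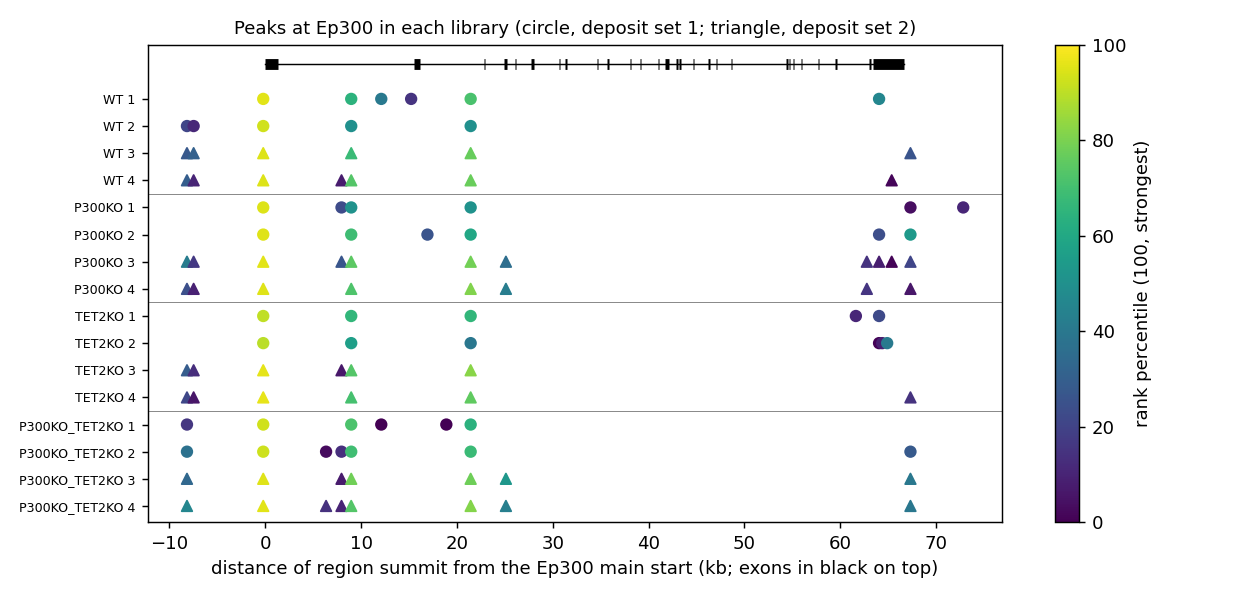
Peaks at *Ep300* in each of 16 libraries, plotted by the distance of the region summit from the main start in kb, with exons drawn in black at the top and colour giving the rank percentile. The promoter and the 2 intronic regions are present in all 16 rows, and the exon 4 peak about 25 kb into the gene appears only in replicates 3 and 4 of P300KO and P300KO_TET2KO.

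The remaining *Ep300* regions were flanking or scattered. A region about 8 kb upstream, chr15:81576958-81577367, was found in 11 libraries, in all 8 of deposit set 2 and 3 of set 1. A region just past the 3′ end, chr15:81652226-81653017, was found in 9 libraries: 1 of 4 WT (percentile 25.8), 4 of 4 P300KO (3.53, 53.6, 20.6 and 6.19), 1 of 4 TET2KO (14.5) and 3 of 4 P300KO_TET2KO (28.1, 39.9 and 39.5). It was present in more libraries without p300 than with p300 on both backgrounds, and 1 of these 9 values was above the middle of its list. The number of regions at *Ep300* was 6, 5, 6 and 7 in WT, 6, 6, 11 and 8 in P300KO, 5, 6, 6 and 6 in TET2KO, and 6, 7, 7 and 8 in P300KO_TET2KO. On the square root scale this was 0.28 higher with p300 loss (SE 0.09, unadjusted p = 0.00879, adjusted p = 0.377 over 19728 genes by limma), and it was not called.

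*Crebbp*, the paralog of *Ep300*, was called neither higher nor lower. Its promoter, chr16:4213827-4214604, had percentiles of 95.3, 93.5, 96.8 and 97.4 in WT and 94.2, 93.5, 97.7 and 95.9 in P300KO. In TET2KO they were 92.5, 95.4, 96.6 and 97.7, and in P300KO_TET2KO 93.3, 94.0, 96.2 and 97.2. These ranges overlapped almost fully, and the difference with p300 loss was −0.39 points (−1.32 to 0.55, adjusted p = 0.750). Ranked by fold enrichment it was −3.01 points (adjusted p = 0.0987).

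Across the *Crebbp* locus the mean percentile of its 4 regions found in every library was 81.5, 76.8, 83.3 and 81.3 in WT and 74.6, 69.9, 81.9 and 79.3 in P300KO. It was 78.2, 79.4, 83.5 and 81.9 in TET2KO and 80.7, 78.3, 81.6 and 82.5 in P300KO_TET2KO. The 2 low libraries were replicates 1 and 2 of P300KO. The locus differed by −4.28 points between P300KO and WT (unadjusted p = 0.0265, adjusted p = 0.394) and by 0.02 points between P300KO_TET2KO and TET2KO (adjusted p = 0.999), where other settings on this scale gave −5.26 to 5.18 points. The difference between these effects was 4.30 points (−0.95 to 9.55, unadjusted p = 0.102, adjusted p = 0.930), and averaged over both backgrounds the effect was −2.13 points (−4.75 to 0.50, adjusted p = 0.558). Its sign depended on the processing: it was 1.30 points with only peaks of −log10 q of at least 2, where the median of all loci was 1.83, and 4.10 points when regions found in at least 12 libraries were used, where the median of all loci was 1.34. Ranked by fold enrichment it was −4.93 points (adjusted p = 0.0734). Without P300KO replicate 2 it was −1.35 points, and the difference of P300KO from WT was −2.72 points.

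The lower *Crebbp* values in P300KO lay mostly in 1 region in the flank, chr16:4074860-4075304, whose nearest start is that of *Trap1*, the gene of a mitochondrial chaperone. Its percentiles were 65.3, 47.7, 71.2 and 61.2 in WT and 50.9, 21.4, 63.4 and 57.6 in P300KO. The difference was −13.05 points (unadjusted p = 0.0512, adjusted p = 0.384), where the other 3 *Crebbp* regions lay between −2.17 and −0.42 points. With p300 loss over both backgrounds it had the most negative value among the 32 acetyltransferase regions tested, −5.71 points (SE 4.42, adjusted p = 0.617), and without P300KO replicate 2 it was −1.98 points. A second region beside the *Crebbp* start, chr16:4212868-4213536, had values between 59.8 and 74.6 and differed by −1.59 points (adjusted p = 0.823), or −0.092 without P300KO replicate 1 and −2.78 without P300KO replicate 2. Of the 70 *Crebbp* regions, 9 were found in 8 or more libraries. The 5 not in every library were 2 intronic regions in 13 libraries each, chr16:4199996-4200388 and chr16:4203604-4204502, a region beside the first exon in 13, chr16:4212278-4212520, one over exon 3 in 10, chr16:4154659-4155481, and one at an internal start in 8, chr16:4128979-4129350. The last 2 had peaks in 1 and 0 of 4 WT libraries, 2 and 2 of 4 P300KO, 3 and 2 of 4 TET2KO and 4 of 4 P300KO_TET2KO libraries, at percentiles of at most 33.6 and 33.3.

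No acetyltransferase locus was called in any contrast. Averaged over both Tet2 backgrounds, 0 of 9 loci passed an adjusted p of 0.05 by limma, against 0.0305% of 16370 loci that rose and 0.11% that fell. At an unadjusted p under 0.05 there were 3 of 9, *Kat5*, *Kat6a* and *Kat2a*, against 10.6% of all loci. The values were positive at 6 loci and negative at 3, with a median of 2.74 points beside 0.05 points over all loci. In P300KO against WT, 0 of 9 were called (0% of all loci in either direction) and 3 had an unadjusted p under 0.05, against 11.2% of all loci. In P300KO_TET2KO against TET2KO, 0 of 9 were called, against 0.0122% that rose and 0.00611% that fell, and 2 had an unadjusted p under 0.05, against 4.7% of all loci. A difference of the p300 effect between the Tet2 backgrounds was called at 0 of 9 loci (lowest unadjusted p = 0.0901, adjusted p = 0.930, 0% of all loci called). Between TET2KO and WT the lowest unadjusted p among the 9 was 0.0627 (adjusted p = 0.661, 0% of all loci called).

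**Figure D2:**
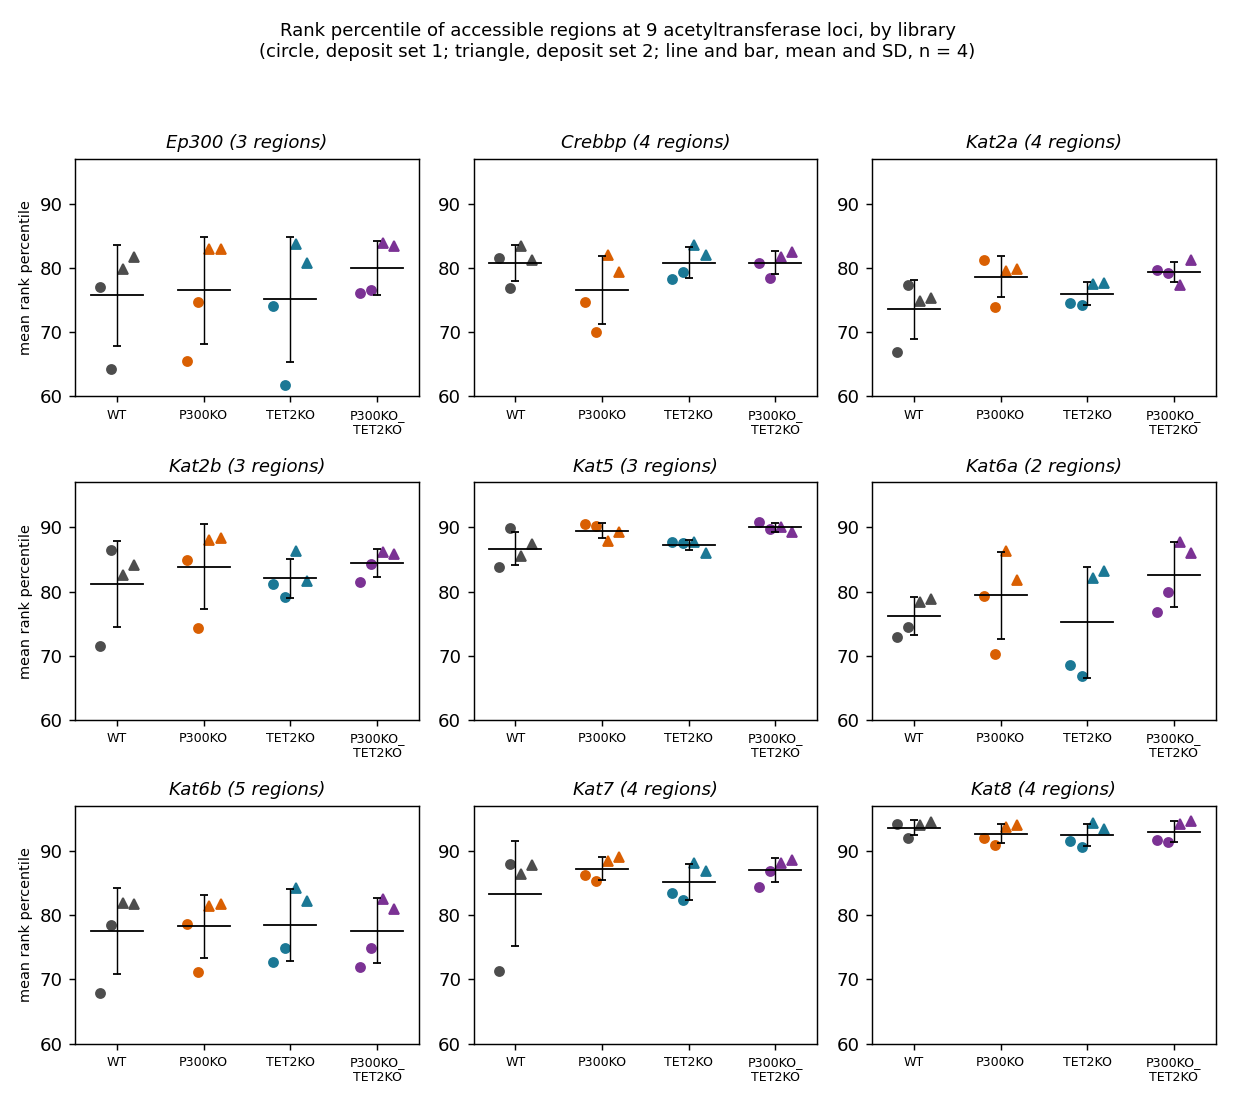
Mean rank percentile of the regions found in all 16 libraries at each of the 9 loci, for each library by genotype, with circles for deposit set 1, triangles for set 2, and line and bar for mean and SD (n = 4). *Kat5* is the narrowest in spread among the loci with positive values, from 83.9 to 90.9, and *Kat8* is nearly level at 90.6 to 94.7.

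*Kat5*, the gene of TIP60, the catalytic subunit of the NuA4-type acetyltransferase complex, held the 1 acetyltransferase region that was called. This region, chr19:5612854-5613547, is 694 bp wide, has its summit 2993 bp upstream of the main *Kat5* start and lies between *Kat5* and *Rela*, whose start is 23936 bp away. Its percentiles were 73.0, 87.1, 71.1 and 77.0 in WT, with a mean of 77.1 ± 7.11 (SD, n = 4), and 86.7, 90.8, 81.6 and 84.3 in P300KO, with a mean of 85.8 ± 3.92. They were 85.3, 84.9, 79.5 and 74.3 in TET2KO, with a mean of 81.0 ± 5.20, and 91.9, 89.4, 87.0 and 86.6 in P300KO_TET2KO, with a mean of 88.7 ± 2.42. Every P300KO_TET2KO library lay above every TET2KO library, and WT replicate 2 lay inside the range of P300KO. In P300KO_TET2KO against TET2KO, 5.57% of all regions had an unadjusted p under 0.05 by limma, and in P300KO against WT 13.2%.

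The region upstream of *Kat5* rose by 8.26 percentile points with p300 loss over both backgrounds (SE 1.78, 95% interval 4.51 to 12.01, unadjusted p = 0.00021, adjusted p = 0.0402 by limma over 39310 regions). Among all regions 0.109% rose and 0.552% fell at this threshold, and among the 32 acetyltransferase regions 1 rose and 0 fell. The mean difference was positive in all 4 combinations of deposit set and Tet2 background, at 8.72 and 5.53 points in set 1 and 8.85 and 9.94 points in set 2, for Tet2 present and lost in that order. P300KO against WT gave 8.78 points (adjusted p = 0.179, no acetyltransferase region called, against 0% of all regions that rose and 0.0102% that fell). P300KO_TET2KO against TET2KO gave 7.73 points (adjusted p = 0.582, none called, against 0.00763% that rose and 0.0611% that fell). The call depended on the processing and was lost in 5 of 9 other fits. Over the 8 of them on the percentile scale the effect ran from 8.26 to 20.3 points, with adjusted p from 0.0062 to 0.613, and without the deposit set term it was 8.26 points with the adjusted p of 0.613. It was also lost when any of 13 of the 16 libraries was left out, with effects of 6.98 to 9.53 points and adjusted p from 0.0126 to 0.0988 over all 16 omissions. The omissions that kept the call were those of WT replicates 1, 2 and 4.

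The *Kat5* promoter was not called. At chr19:5609477-5610469 its percentiles were 95.4, 95.4, 94.1 and 94.1 in WT and 92.9, 92.8, 93.5 and 93.6 in P300KO, so all P300KO libraries lay below all WT libraries. In TET2KO they were 92.2, 93.5, 93.7 and 93.6, and in P300KO_TET2KO 92.9, 91.9, 93.6 and 93.2, which overlapped. P300KO against WT gave −1.55 points (unadjusted p = 0.0183, adjusted p = 0.295 by limma). In that contrast 13.2% of all regions had an unadjusted p under 0.05. The effect over both backgrounds was −0.94 points (−1.83 to −0.05, unadjusted p = 0.0388, adjusted p = 0.356), which was not called. The third *Kat5* region lies at the start of *Rnaseh2c* and differed by 0.91 points (adjusted p = 0.755). The locus mean of *Kat5* was 2.74 points higher with p300 loss (1.08 to 4.40, unadjusted p = 0.00289, adjusted p = 0.195) and rests on the upstream region: with the gene body alone it was −0.94 points.

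**Figure D3:**
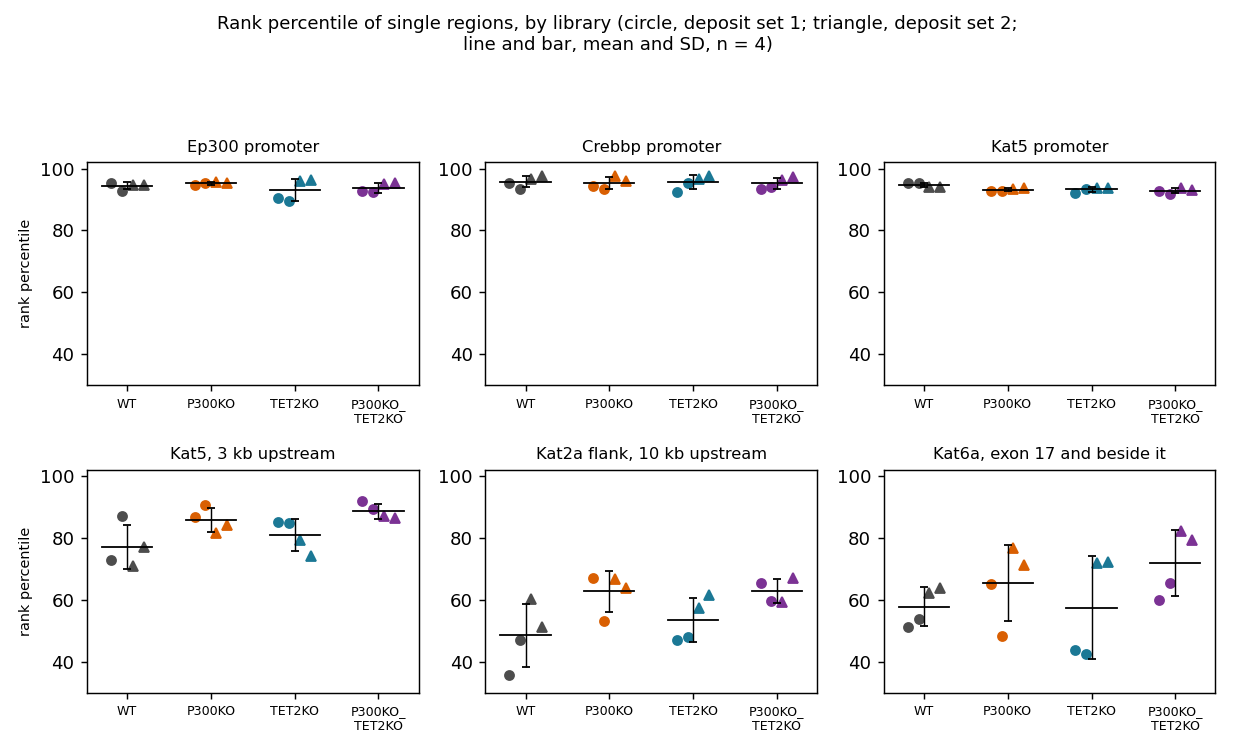
Rank percentile of 6 single regions in each library, with circles for deposit set 1, triangles for set 2, and line and bar for mean and SD (n = 4). The 3 promoters on top lie at 89.5 to 97.7, with *Kat5* lower in every P300KO library than in every WT library, and the region upstream of *Kat5* averages 77.1 in WT and 81.0 in TET2KO against 85.8 and 88.7 without p300.

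*Kat6a*, the gene of MOZ, which is required to maintain hematopoietic stem cells, had the most positive locus value of the 9 in the fit used here. The mean percentile of its 2 regions found in every library was 72.9, 74.4, 78.4 and 78.9 in WT and 79.3, 70.3, 86.3 and 81.7 in P300KO. In TET2KO it was 68.5, 66.8, 82.1 and 83.2, and in P300KO_TET2KO 76.9, 80.0, 87.8 and 86.0. The 2 P300KO_TET2KO libraries of a deposit set ranked higher than the TET2KO libraries of that set, and the groups overlapped between sets. The effect over both backgrounds was 5.36 points (2.01 to 8.72, unadjusted p = 0.00372, adjusted p = 0.220). It came from a region over the start of exon 17 of 18 and the intron behind it, chr8:22935483-22936403, and not from the promoter, which differed by −0.25 points (adjusted p = 0.892). The locus value turned to −0.40 with the strongest 50000 peaks and to −0.25 with at least 50% of a region covered.

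That *Kat6a* region had percentiles of 51.2, 53.7, 62.3 and 63.9 in WT and 65.1, 48.3, 76.8 and 71.3 in P300KO. In TET2KO they were 43.8, 42.4, 71.8 and 72.1, against 60.1, 65.6, 82.4 and 79.4 in P300KO_TET2KO. Deposit set 2 ranked above set 1 in each genotype. The effect over both backgrounds was 10.97 points (SE 3.32, adjusted p = 0.150), and with percentiles taken only among the regions found in all 16 libraries it was 13.7 points and called (adjusted p = 0.0262). That setting called more regions throughout: 442 rose and 749 fell of 39310, against 43 and 217 in the main fit.

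*Kat2a*, the gene of GCN5 in the SAGA and ATAC coactivator complexes, had a locus value of 4.23 points (0.96 to 7.50, unadjusted p = 0.0144, adjusted p = 0.344). Its 4 regions include the starts of *Dhx58* and *Hspb9*, and its own promoter differed by 0.69 points (−2.93 to 4.31, adjusted p = 0.899). Most of the locus value lay in a flanking region about 10 kb upstream, chr11:100721094-100722774. There the percentiles were 35.7, 47.1, 60.3 and 51.3 in WT and 67.1, 53.2, 66.9 and 63.9 in P300KO, and 47.1, 48.0, 57.4 and 61.7 in TET2KO and 65.6, 59.7, 59.2 and 67.0 in P300KO_TET2KO. The ranges overlapped on both Tet2 backgrounds, and the effect over both backgrounds was 11.76 points (SE 3.66, unadjusted p = 0.00485, adjusted p = 0.163). It was the most positive of the 32 regions and was not called.

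*Kat2b*, the gene of PCAF, differed by 2.55 points (−1.49 to 6.60, adjusted p = 0.656), with 3 regions found in every library, and by 1.25 points without WT replicate 1 and 3.98 without WT replicate 2. The intronic region chr17:53570367-53570700, about 3.6 kb into the gene, ranged from 34.5 in WT replicate 1 to 79.6 in P300KO replicate 4 and differed by 10.34 points (SE 4.73, adjusted p = 0.365), or 6.54 without WT replicate 1. The other intronic region, chr17:53586945-53588246, lay between 80.4 and 92.5 and differed by −1.80 points (adjusted p = 0.525), or −0.66 without P300KO replicate 2.

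The last 3 members, all of the MYST family, were not called. *Kat6b*, the paralog of *Kat6a*, differed by −0.08 points (−3.33 to 3.17) over 5 regions. *Kat8*, whose product MOF acetylates histone H4, differed by −0.21 points (−1.10 to 0.68) over 4 regions. *Kat7*, whose product HBO1 acetylates histone H3 and takes part in replication licensing, differed by 2.84 points (−0.71 to 6.39, adjusted p = 0.562) over 4 regions, where WT replicate 1 stood apart at 71.3 against 86.5 to 88.0 in the other WT libraries, and without it the value was 1.05 points.

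**Figure D4:**
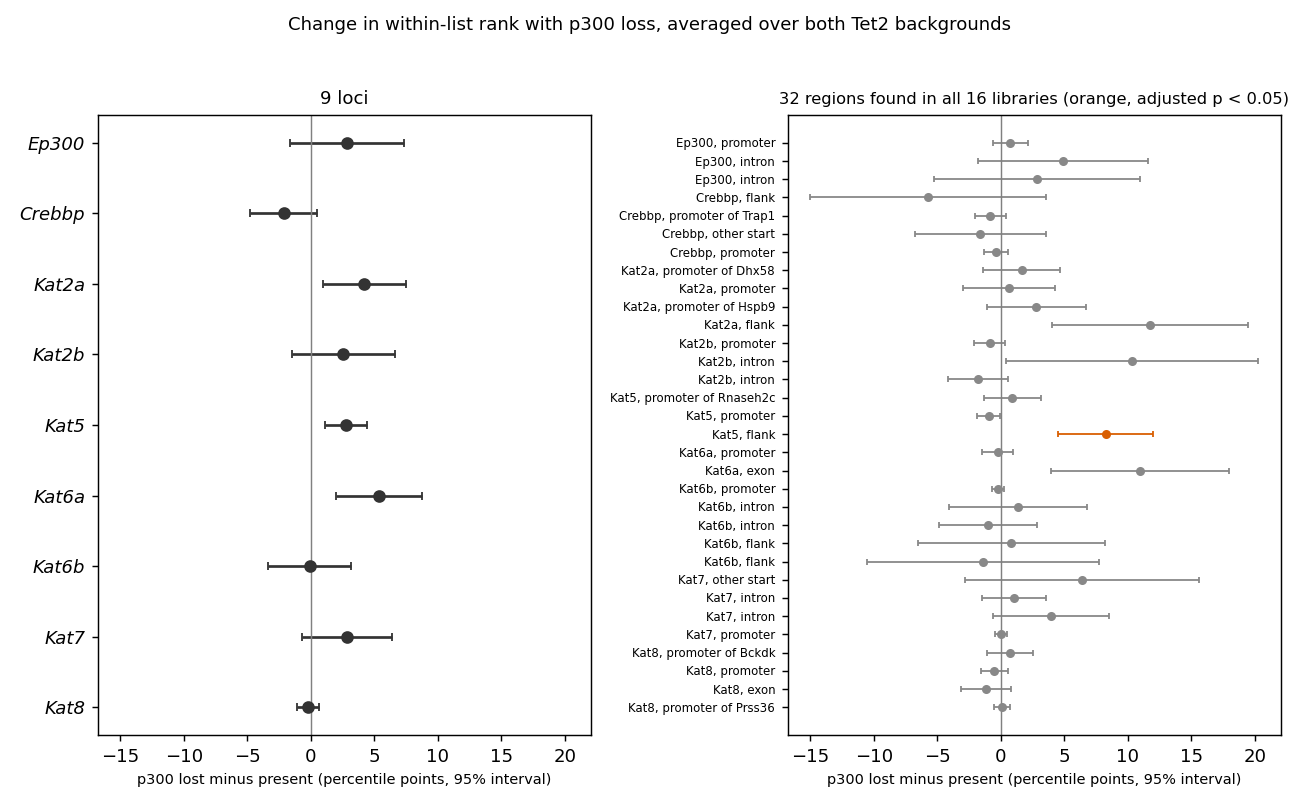
Difference in rank percentile between libraries lacking and having p300, averaged over both Tet2 backgrounds, with 95% intervals, for the 9 loci on the left and the 32 regions found in all 16 libraries on the right. Promoter differences by −log10 p rank lie between −0.94 and 0.76 points, with the widest interval at *Kat2a* (−2.93 to 4.31), and the region upstream of *Kat5*, in orange, is the 1 region called, at 8.26 points.

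The 252 regions differed in kind. Introns held 162 of them, flanks 31, exons 27, other starts of the genes 15, starts of neighbouring genes 8 and the promoters 9. All 9 promoters were found in every library, against 8 of 162 intronic regions and 5 of 31 flanking regions, and 101 of the 252 regions were found in 1 library. Of the 252 regions 12.7% were found in all 16 libraries, beside 13.3% of all 296215. There were 3 member regions present in all 8 libraries of deposit set 2 and none of set 1, and 0 of the reverse, beside 0.913% and 0.00135% of all regions. *Crebbp* had 70 regions, *Kat6b* 58, *Kat6a* 42, *Kat2b* 22, *Ep300* 20, *Kat7* 17, *Kat8* 10, *Kat5* 7 and *Kat2a* 6.

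Loss and gain of whole peaks gave few regions. Requiring a peak in all 4 libraries of a genotype and none of the compared genotype, 0 acetyltransferase regions were gained or lost in P300KO against WT, where 0.0154% of all regions were gained and 0.0122% lost. In P300KO_TET2KO against TET2KO there were also 0, beside 0.0938% gained and 0.0201% lost. When 3 libraries or more in a genotype and 1 or fewer in the compared genotype sufficed, 4 were gained and 0 lost in P300KO against WT, beside 0.871% of all regions gained and 0.687% lost. In P300KO_TET2KO against TET2KO 8 were gained and 0 lost, beside 1.86% gained and 0.82% lost. Regions gained by this looser rule in both comparisons were the one past the 3′ end of *Ep300* and an intronic one of *Kat8*, chr7:127921589-127921817. The latter had a peak in 1 of 4 WT (37.8), 3 of 4 P300KO (43.5, 43.2 and 36.8), 1 of 4 TET2KO (50.5) and 3 of 4 P300KO_TET2KO libraries (25.8, 36.9 and 16.7).

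The number of regions per locus also gave no call. With p300 loss over both backgrounds, 0 of 9 loci were called, against 0.00507% of 19728 genes that rose and 0% that fell, and 3 of 9 had an unadjusted p under 0.05, against 9.25% of all genes. These 3 were *Ep300*, *Kat6a* and *Kat5*. At *Kat6a* there were 6, 10, 14 and 14 regions in WT, 12, 16, 17 and 16 in P300KO, 9, 7, 16 and 15 in TET2KO, and 8, 12, 20 and 15 in P300KO_TET2KO, a difference of 0.45 on the square root scale (SE 0.16, adjusted p = 0.423).

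Genes that work with the acetyltransferases gave no call either. Of 34 loci of complex subunits, 12 of other acetyltransferases, 17 of deacetylases and 10 of readers of acetyl-lysine, 0 were called with p300 loss over both backgrounds, against 0.0305% of all loci that rose and 0.11% that fell, and 4, 0, 1 and 1 had an unadjusted p under 0.05, against 10.6% of all loci. Their median differences were −0.23, −0.30, 0.21 and 1.44 points, beside 0.05 points over all loci and 2.74 points over the 9 members. Values were positive at 12 of 34, 5 of 12, 11 of 17 and 8 of 10 loci, beside 52.0% of all loci.

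Over the 16 libraries, with percentiles centred within each deposit set, the promoters whose pattern was most like that of *Ep300* belonged to *Usp9x*, *Cfap46*, *Impdh2*, *Sqstm1* and *Lrrc24*, with Pearson's r from 0.87 to 0.90. Those most like *Crebbp* belonged to *Pofut2*, *Mat2a*, *Pcgf5*, *Odf2* and *Klhl21*, with r from 0.82 to 0.88. *Ep300* and *Crebbp* had r = 0.13 with each other. These are descriptions over 12644 promoters that share the same 16 lists.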

How the data were processed

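ATAC-Seq peak lists of 16 libraries were used. Per the labels and methods, the authors trimmed reads with cutadapt 1.9.1, aligned them to mm10 with Bowtie2 2.2.6, removed duplicates, shifted reads for the transposase and called peaks per library with MACS2 2.1.0. The deposited lists give for each summit a fold enrichment (the ratio over local background) and −log10 p and −log10 q as computed by the authors. Summits of an interval were collapsed to the strongest, and peaks sharing at least 1 bp were merged. Loci followed GENCODE M21 with 10 kb flanks, a promoter lay within 1 kb of the main start, and locus rank was the mean percentile of regions found in all 16 libraries. Fits used limma 3.58.1 with genotype and deposit set, Benjamini-Hochberg adjusted over all loci or regions, and a threshold of 0.05. The fits were tested on simulated data, and a value that was not called is not shown to be unchanged. Libraries are separate pools of mice. Same-numbered libraries were no more alike than others of their deposit set, and samples were treated as unpaired. Strings were searched with Python 3.11.15.

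Named were all 9 loci, their promoters, *Ep300* and *Crebbp* regions found in at least 8 libraries, called regions, and the 3 largest changes each way. Of the marker genes, 2 are not reported here. The members and lists were chosen with earlier results of these data known. The *Ep300* and *Kat5* windows were kept off exons. Comparisons within a deposit set were added after seeing the data. Alternatives were the threshold, list length, overlap, ranked regions, rank measure, scale, flank, set term, replicate block and leaving out each library.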

Additional observations from a re-analysis of the deposited data

Results flagged for a closer look

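Of 112 groups of 4 libraries examined over the 9 loci and 19 named regions, 5 held a library far from the rest, where chance alone gives about 1 in 20. WT replicate 1 had a mean percentile of 71.3 at *Kat7*, against 86.5 to 88.0 in the other WT libraries. The region beside the *Crebbp* start, chr16:4212868-4213536, had a lowest WT value of 69.1 against 71.2 to 71.5. Among TET2KO libraries the lowest value was 86.1 at the *Kat5* locus against 87.5 to 87.7, 92.2 at the *Kat5* promoter against 93.5 to 93.7, and 97.9 at the *Kat7* promoter against 98.6 to 98.7.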

How the results depend on the processing

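The count of 0 called loci held in every alternative fit of every contrast except that 1 locus, *Kat5*, was called over both backgrounds (6.61 points, adjusted p = 0.0471) when percentiles were taken among the regions found in all 16 libraries. Over all 16370 loci that setting called 145 that rose and 131 that fell, against 5 and 18 in the main fit. Over all 39310 regions it called 442 that rose and 749 that fell, against 43 and 217. The unadjusted exact permutation gave 3 of 9 loci under 0.05. It was run for the members only, so no share over all loci stands beside it. By limma 10.6% of all loci had an unadjusted p under 0.05. The 1 called region became 2 with those percentiles and 0 with −log10 q of at least 2, regions found in at least 12 libraries, rank by fold enrichment, no deposit set term, or the replicate block, and ranged from 0 to 1 as each library was left out. Gained and lost regions were 0 in the main count, 1 with the strongest 50000 peaks, 1 with at least 50% of a region covered, 12 with the looser rule (4 and 8 in the 2 comparisons, with 2 regions in both), 0 to 2 as each library was left out (2 without P300KO replicate 2, 1 without replicate 3 of WT or TET2KO), and, chosen after seeing the data, 1 in deposit set 2 alone. Same-numbered libraries were no more alike than others of their deposit set. Their deviations correlated with a median of −0.15 (range −0.39 to 0.07), against −0.10 (−0.34 to 0.09) for different numbers in the same set. In place of the set term, the replicate block changed no other call. At −log10 q of at least 2 the median of all loci was 1.83 points.

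Signs changed at values that were not called, and the cause was not tested. With −log10 q of at least 2 the locus values over both backgrounds were 1.30 at *Crebbp*, −0.028 at *Kat2b*, 4.35 at *Kat6b* and 0.88 at *Kat8*, those of *Crebbp* were 2.07 in P300KO against WT and −1.56 for the difference between backgrounds, and the regions gave 0.11 at the *Kat8* promoter, 0.66 at *Kat6a*, 0.27 at *Kat7*, 0.47 at *Crebbp*, 3.73 beside the *Crebbp* start and 0.43 at *Kat2b*. With regions found in at least 12 libraries the loci gave 4.10 at *Crebbp*, 5.36 at *Kat6b* and 3.09 at *Kat8*, and 3.02 at *Crebbp* in P300KO against WT. The strongest 50000 peaks gave −2.37 at *Kat2b*, −0.40 at *Kat6a* and 0.94 at *Kat6b*. With 50% coverage the values were −0.25 at *Kat6a*, −0.0070 at *Kat7* and 0.10 at *Kat8*. With fold enrichment they were −1.16 at *Kat2b*, −0.65 for the *Crebbp* difference between backgrounds, and 0.031, −3.22 and −3.04 at the promoters of *Kat8*, *Kat2a* and *Ep300*. The gene body alone gave −0.94 at *Kat5* and 0.053 at *Kat6b*, and log2 odds gave 0.014 at the *Kat7* promoter. *Crebbp* in P300KO_TET2KO against TET2KO, at 0.02 points, was −1.56, −0.97, −5.26, −0.046 and −0.68 with the strongest 50000, percentiles among regions in all 16, fold enrichment, log2 odds and the gene body, and 5.18 with regions found in at least 12 libraries. The peak number at *Kat7* was 0.11, 0.15 and 0.090 higher on the square root scale with the q limit, the strongest 50000 and 50% coverage. As each library was left out, values spanned −0.76 to 0.52 at *Crebbp* in P300KO_TET2KO against TET2KO, −1.09 to 0.86 at *Kat6b*, −0.36 to 0.092 at *Kat8*, −0.013 to 5.19 at the farther *Ep300* intronic region, and −0.43 to 1.38, −0.66 to 0.025 and −0.10 to 0.11 at the promoters of *Kat2a*, *Kat6a* and *Kat7*. They spanned 0.34 to 1.17 at the *Ep300* promoter, −0.67 to −0.15 at that of *Crebbp* and 2.74 to 5.48 for the *Crebbp* difference between backgrounds. The depth reached by each library is unknown, so a region without a peak was not detected at that library's depth.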

Other observations

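At *Kat8*, a region over exon 6, chr7:127921971-127923069, had percentiles of 90.3, 86.6, 89.8 and 90.2 in WT and 84.1, 80.7, 87.8 and 88.6 in P300KO, with values of 85.4, 84.9, 89.6 and 88.4 in TET2KO and 87.8, 86.4, 88.9 and 91.7 in P300KO_TET2KO. P300KO was −3.92 points from WT and P300KO_TET2KO was 1.64 points from TET2KO, a difference between the backgrounds of 5.56 points (95% interval 1.66 to 9.47, unadjusted p = 0.00779 by limma, adjusted p = 0.931, 0% of all regions called). It was picked out after its values were seen. For this difference 1 of 32 acetyltransferase regions had an unadjusted p under 0.05 by limma, against 4.59% of all regions. At *Kat6b*, an intronic region, chr14:21653616-21654641, ranged from 56.7 to 91.8, and its values in deposit set 2 all lay above those in set 1.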
